A study of Mus musculus with 3 samples.

Results

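Of the 13285 regions pulled down from mouse cerebellum DNA by an antibody against 5-hydroxymethylcytosine (5hmC), 399 held a perfect short tandem repeat of at least 40 bp together with at least 2 CpG dinucleotides. Regions were made by merging the peaks of 3 reactions on chromosomes 1 to 19 wherever they overlapped by 1 bp or more. A repeat was counted when a unit of 1 to 6 bp was repeated without a mismatch over at least 40 bp of GRCm39 sequence lying wholly inside the region. The choice used sequence only, and neither enrichment nor base-calls. Repeats are named here by the first of all rotations of the unit on both strands in alphabetical order, so that AC stands for AC, CA, GT and TG.

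Hydroxymethylated DNA immunoprecipitation (hMeDIP) captures sonicated fragments with an antibody against 5hmC, a base that TET enzymes make from 5-methylcytosine (5mC) and that is abundant in neurons. Nanopore sequencing of the captured, unamplified fragments then reads 5hmC, 5mC and unmodified cytosine (C) directly. Short tandem repeats, or microsatellites, are runs of a short unit that mutate by gain or loss of whole units, and expansions of several of them cause human ataxias. Recovery of simple repeats is a known property of antibody pulldowns of DNA, with or without the target base. A control pulldown without a specific antibody was not analysed here, so this was not tested.

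All 3 samples were hMeDIP reactions on cerebellum of a female C57Bl6Cr mouse aged 8 weeks. Replicate 1 used a whole serum antibody, and replicates 2 and 3 used an IgG-purified antibody. Library names show that 1 animal supplied every reaction. Replicates therefore differ by reaction, antibody and sequencing, and the variation from mouse to mouse was not measured. With 1 replicate of one antibody and 2 of the other, the antibody and the reaction cannot be told apart. The peak lists held 490, 8506 and 5146 peaks on chromosomes 1 to 19 in replicates 1, 2 and 3. Replicates 1, 2 and 3 had peaks in 25, 288 and 151 of the 399 regions with a repeat. The base-call files held 69910, 104238 and 75624 calls, with a median of 1 call per CpG.

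The repeats that carry the results below are shown first, with the repeat in capitals and up to 20 bp of the pulled-down region on either side in lower case. All are the forward strand of GRCm39. AATGG, CCCG and AACG repeats are shown for regions with high fold enrichments or many base-calls, AGG repeats recurred in a cluster on chromosome 6, and AC and AG were the commonest units, here with their longest repeats.
AATGG in 4930517M08Rik, chr17:4676567-4676650: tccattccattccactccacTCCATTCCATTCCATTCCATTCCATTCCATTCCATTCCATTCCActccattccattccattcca
AATGG upstream of Gm75750, chr2:60233083-60233178: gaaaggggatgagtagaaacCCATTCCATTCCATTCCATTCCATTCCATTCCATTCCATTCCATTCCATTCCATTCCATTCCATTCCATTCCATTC
AATGG in Dpp9, chr17:56506987-56507105: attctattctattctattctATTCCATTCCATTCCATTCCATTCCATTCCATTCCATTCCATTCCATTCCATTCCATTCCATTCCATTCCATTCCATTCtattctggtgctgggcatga
CCCG in Zfhx3, chr8:109665931-109666013: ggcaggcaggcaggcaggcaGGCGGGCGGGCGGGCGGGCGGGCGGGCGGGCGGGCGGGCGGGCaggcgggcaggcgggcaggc
CCCG in Rngtt, chr4:33495112-33495216: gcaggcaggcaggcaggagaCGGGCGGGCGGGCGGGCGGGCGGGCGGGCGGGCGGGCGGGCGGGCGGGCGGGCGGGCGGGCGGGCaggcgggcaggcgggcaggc
AACG in Trrap, chr5:144752620-144752718: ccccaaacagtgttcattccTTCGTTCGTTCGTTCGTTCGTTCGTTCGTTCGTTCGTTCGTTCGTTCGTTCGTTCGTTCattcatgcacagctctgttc
AGG in the cluster, chr6:47649726-47649865: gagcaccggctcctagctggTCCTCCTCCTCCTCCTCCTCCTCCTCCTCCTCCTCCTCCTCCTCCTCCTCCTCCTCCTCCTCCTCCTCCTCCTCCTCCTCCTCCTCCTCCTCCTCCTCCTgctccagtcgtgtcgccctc
AC upstream of Relt, chr7:100512832-100512985: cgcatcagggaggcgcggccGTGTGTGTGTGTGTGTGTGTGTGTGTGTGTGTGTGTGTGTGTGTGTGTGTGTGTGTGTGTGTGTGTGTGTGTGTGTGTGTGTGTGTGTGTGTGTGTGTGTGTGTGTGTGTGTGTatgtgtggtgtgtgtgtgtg
AG upstream of Gm62357, chr15:38198703-38198820: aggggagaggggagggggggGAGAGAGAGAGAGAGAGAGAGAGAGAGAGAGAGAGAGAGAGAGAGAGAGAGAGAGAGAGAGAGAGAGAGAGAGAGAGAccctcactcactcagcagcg

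Over all lengths together, repeat-bearing regions were about as frequent among pulled-down DNA as in the genome. The 399 made up 3.00% of all regions (95% exact binomial interval 2.72 to 3.31). In 100 draws of random regions with the same chromosomes and lengths, a mean of 406 regions met the same rule (range 366 to 446), giving a ratio of 0.982. Outside the chromosome 6 cluster described below, the ratio differed between 4 classes of length. It was 1.36 in the shortest, under 310 bp (143 regions, random range 82 to 135), and 0.700 in the longest, of 750 bp or more (88 regions, random range 98 to 153), while the classes between, at 0.952 and 0.787, lay within their ranges. The 2 parts of the rule moved in opposite ways. At least 2 CpG were found in 95.9% of pulled-down regions and in 67.7% of random ones, whereas a repeat of either CpG content was found in 3.46% and 4.93%. Set beside random regions that also held at least 2 CpG, of which a mean of 521 had a repeat (range 472 to 571), the ratio was 0.765. With the minimum raised to 5 CpG and random regions again drawn by chromosome and length alone, the ratio was 1.68. There 287 regions stood against a mean of 171 (range 143 to 202), so this value is not comparable with 0.765. On no chromosome but 8 did the count leave the range of the draws, and there 43 regions stood against a range of 14 to 42.

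The peaks of each reaction were also examined by themselves. A repeat with at least 2 CpG lay in 3.67%, 3.24% and 2.70% of the peaks of replicates 1, 2 and 3, against 2.94%, 3.27% and 2.39% of random regions of the same lengths, and each count lay within the range of its draws. A repeat of either CpG content lay in 4.69%, 3.72% and 3.17% of the peaks (intervals 3.00 to 6.96, 3.32 to 4.14 and 2.71 to 3.68). Random regions held one in 4.80%, 5.09% and 4.32%. The share of replicate 1 lay within counting error of random DNA, while those of replicates 2 and 3 lay below it.

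The regions were mostly short, with a median length of 479 bp against 304 bp in the 12342 regions that had at least 2 CpG but no repeat. They held a median of 8.00 CpG against 7.00. The longest repeat of a region had a median length of 47.0 bp and took up a median of 10.8% of the region. CpG inside the repeat were rare, with 254 of the 5114 CpG of these regions. Only 2 regions would be lost if the CpG had to lie outside the repeat. The length minimum fell within a continuum, as 152 regions had a longest repeat of 40 to 44 bp and 125 regions with enough CpG had one of 35 to 39 bp. Their median highest fold enrichments were 3.81 and 3.83.

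Dinucleotide repeats made up most of the set. The unit of the longest repeat was 2 bp in 280 regions (70.2%), and it was AC in 208 (52.1%, interval 47.1 to 57.1). Across chromosomes 1 to 19, AC made up 29.9% of the 336638 repeats of this length. AC repeats occurred in 214 regions, above the random mean of 153 (range 130 to 183). Beside random regions with at least 2 CpG the same count lay within the range of 166 to 234. AG repeats occurred in 61 regions, below the random range of 66 to 109. AAAG was found in 12 regions against a random mean of 28.6, and AGAT in 6 against 20.3, both below the lowest draw. Units of A and G on one strand were found in 128 regions, and made up 32.1% of the 445 repeats in the 399 regions against 45.9% of all repeats of this length in the genome.

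A few units that are rare in the genome had a large share of their repeats pulled down. Of all 336638 repeats, 524 (0.156%) lay inside a pulled-down region of any CpG content, while the regions covered 0.240% of the bases. For AC the share was 0.228% (0.20 to 0.260) and for AG 0.108% (0.0838 to 0.137). All 336 units were then grouped by the number of their repeats in the genome, whether or not any was pulled down, with class bounds set after seeing the data. The 174 units with 1 to 10 repeats each had 8 of 636 inside a region (1.26%, 0.545 to 2.46), and only 4 of these units had any. Without CCCG and AACG, which supplied 6 of the 8, it was 2 of 622 (0.322%, 0.0390 to 1.16). The 89 units with 11 to 100 repeats had 30 of 3036 (0.988%, 0.668 to 1.41), or 0.599% without AATGG. The share was 0.221% for 101 to 1000 repeats, 0.0992% for 1001 to 10000 and 0.154% for the 7 most frequent units. Without the cluster on chromosome 6 the first 2 shares were 1.10% and 0.823%. The rare units found in at least 3 of the 399 regions are given as a description, since that choice sets a high share for any rare unit. For AATGG the share was 41.4%, or 12 of the 29 such repeats in the genome (23.5 to 61.1). For CCCG it was 3 of 4 (75%, 19.4 to 99.4), for AACG 3 of 10 (30%, 6.67 to 65.2) and for ACCCC 5 of 32 (15.6%, 5.28 to 32.8). The AATGG repeats lay in 6 of the 399 regions and in 6 regions with fewer than 2 CpG, and a draw of random regions with at least 2 CpG held at most 2 with such a repeat. All 5 of the ACCCC repeats lay in the cluster on chromosome 6.

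**Figure D1:**
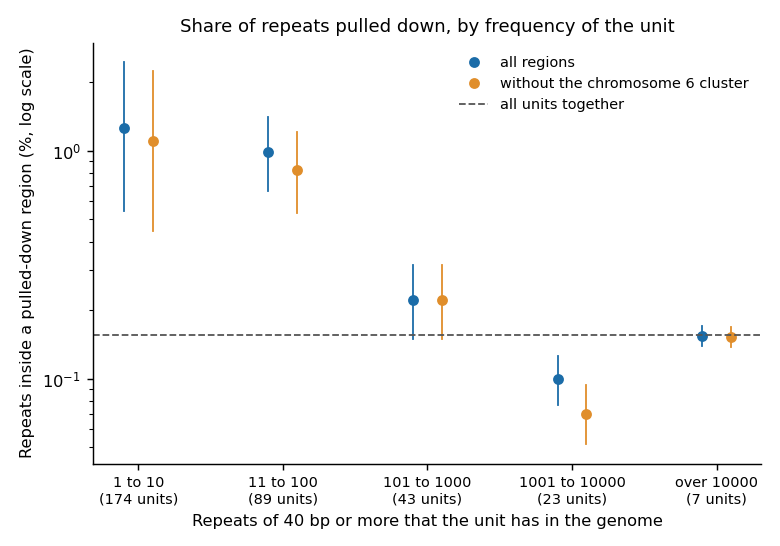
Percent of repeats of 40 bp or more that lay inside a pulled-down region (y axis, log scale), for all 336 units in classes of the number of such repeats that a unit has on chromosomes 1 to 19 (x axis). Points are classes with and without the cluster on chromosome 6, vertical lines are 95% exact binomial intervals and the dashed line is the 0.156% of all units together. The 2 classes of up to 100 repeats lie at 1.26% (0.322% without CCCG and AACG) and 0.988% (0.599% without AATGG), and the class of the most frequent units lies at 0.154%.

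The few strongly enriched regions were rich in repeats, whereas the bulk of regions was not. Fold enrichment is the ratio of the pileup at the summit of a peak to the background estimated from untreated DNA. The reads were few, so the values took steps, and in replicate 2 the values 3.83 and 2.87 alone covered 26.6% and 16.4% of the peaks. Regions were grouped by the highest fold enrichment of their peaks, with bounds set after seeing the data. Below 4, 2.70% of regions held a repeat and enough CpG, against 2.76% of random regions. From 4 to 6, 3.33% did, against 3.99%. From 6 to 8 the share was 9.35% (5.07 to 15.5) against 6.02%, within the range of the draws. At 8 or more, it was 40.0% (16 of 40, 24.9 to 56.7) against 6.65%, and the most in any draw was 5 regions. Without the cluster on chromosome 6, 11 of 35 remained (31.4%, 16.9 to 49.3), against at most 6 in a draw. The counts rested in large part on replicate 3. Without replicate 3, 8 of 24 regions at 8 or more had a repeat (33.3%, 15.6 to 55.3), and outside the cluster 3 of 19 did (15.8%, 3.38 to 39.6). None of the 16 regions at 8 or more had a dinucleotide as its longest repeat, although AC and AG led in 266 of the 399. AATGG led in 4 of them, AAGGAG in 3, and AGG and CCCG in 2 each.

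**Figure D2:**
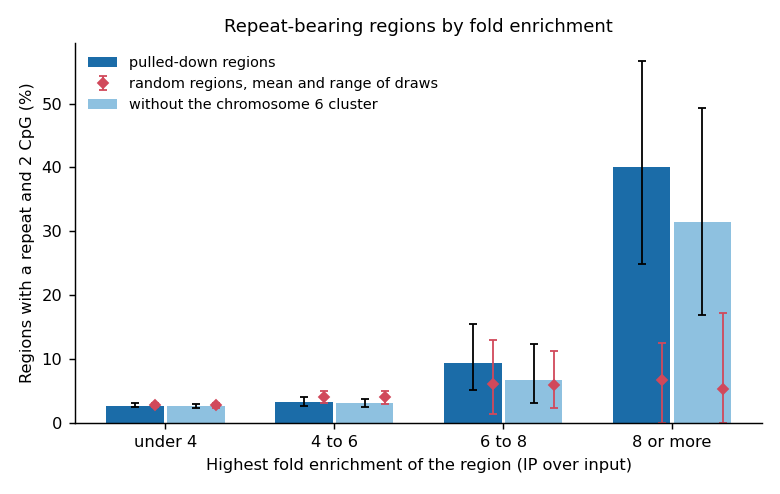
Percent of regions with a repeat and at least 2 CpG, by the highest fold enrichment of the region. Bars are pulled-down regions, with and without the cluster on chromosome 6, black lines are 95% exact binomial intervals, and diamonds with red lines are the mean and range of 100 draws of random regions. Bars and diamonds are close below 6, and the bar at 8 or more stands at 40.0% beside a diamond at 6.65%.

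Regions with and without a repeat had close median fold enrichments. The median fold enrichment of their peaks in replicates 1, 2 and 3 was 5.30, 3.83 and 3.87, and that of peaks in regions with enough CpG and no repeat was 4.72, 3.83 and 3.87. The mean difference of medians was 0.192 ± 0.332 (SD, n = 3; two-sided exact permutation test by sign flips, p = 0.500). Without the cluster it was -0.0196 (exact permutation p = 0.500). With repeats of at least 60 bp it was 1.42 and positive in all 3 replicates (2.46, 0.689 and 1.12 in that order, exact permutation p = 0.25). With repeats of at least 30 bp it was 3.67e-05 (exact permutation p = 0.500). Both settings of repeat length kept the cluster. The difference of means over peaks was 0.657 (exact permutation p = 0.25). Without the cluster it was 0.208, with -0.217, 0.145 and 0.696 in replicates 1, 2 and 3 (exact permutation p = 0.750). With the other regions matched on CpG count and length and the cluster kept, the median difference averaged 0.311. Its values were 0.932, 0 and -2.50e-05 in replicates 1, 2 and 3. The 3 reactions cannot give a p below 0.25. At the upper end, 32.0%, 5.88% and 13.1% of the peaks of repeat-bearing regions reached 6 in replicates 1, 2 and 3, against 8.91%, 0.889% and 0.730% of the others. The difference was positive in all 3 replicates, with a mean of 13.5 ± 9.10 percentage points (SD, n = 3; exact permutation p = 0.25). Without the cluster the shares were 6.67%, 3.33% and 11.7%, and replicate 1 lay below its other peaks (exact permutation p = 0.500).

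AATGG repeats gave the highest value of the set. The region chr17:4676278-4676915, in an intron of the noncoding gene 4930517M08Rik, had a fold enrichment of 7.79, 12.8 and 21.3 in replicates 1, 2 and 3. It held 3 CpG, and 46.7% of its 30 base-calls were 5hmC. The region chr2:60232854-60233178, mostly just upstream of the predicted gene Gm75750 and overlapping Gm13580, had no peak in replicate 1 and values of 10.7 and 10.9 in replicates 2 and 3. In Dpp9, a serine protease that releases dipeptides from the amino end of proteins, chr17:56506764-56507303 had values of 5.94 and 14.8 in the same 2 replicates. The other AATGG regions were chr6:132440455-132440993 (5.58 and 10.4 in replicates 2 and 3), chr11:25049900-25050359 (8.76 in replicate 3) and chr6:125853667-125854796, overlapping the calcium-activated chloride channel gene Ano2 and mostly just upstream of the predicted gene Gm66369 (9.44 and 13 in replicates 2 and 3). The last has an ACTCC repeat of 64 bp as its longest. All values of replicate 3 were at least as high as those of replicate 2 in the 5 regions with a peak in both. These regions had 2 or 3 CpG each, and 3 of the 6 had no base-call at all.

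CpG-bearing units were found in 18 regions (4.51%), and 3 of these had far more base-calls than the rest. In an intron of Zfhx3, a zinc finger homeobox transcription factor, chr8:109665751-109666259 held 58 CpG and a CCCG repeat of 43 bp. Its fold enrichment was 4.01, 7.55 and 18.2 in replicates 1, 2 and 3, and it held 5180 base-calls, up to 87 at a CpG. In an intron of Rngtt, the mRNA capping enzyme, chr4:33494894-33495434 with a CCCG repeat of 65 bp had a peak in replicate 3 alone, at 10.8. In an intron of Trrap, a scaffold of histone acetyltransferase complexes, chr5:144752390-144752945 had an AACG repeat of 59 bp and values of 6.47 and 10.4 in replicates 2 and 3. Calls were pooled over those of the 3 regions that had a peak in the replicate (1, 2 and 3 regions). In the peaks of replicates 1, 2 and 3, 5hmC made up 19.4%, 15.2% and 12.6% of base-calls. 5mC made up 61.3%, 58.5% and 64.1%. Most of these calls came from Zfhx3, and the regions differed. Over the whole regions and all replicates, 5mC made up 65.6% in Zfhx3 and 68.3% in Rngtt (653 calls). In Trrap (680 calls) it was 32.9%, and 51.2% were unmodified C. 5hmC was 14.7%, 8.73% and 15.9% in Zfhx3, Rngtt and Trrap.

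A single cluster on chromosome 6 held 20 of the 399 regions (5.01%), when regions less than 100000 bases apart were joined and at least 10 were required, a rule set after seeing the data. It spanned 122 kb at chr6:47632809-47755118 between Ezh2, the histone H3 lysine 27 methyltransferase, and Pdia4, a protein disulphide isomerase of the endoplasmic reticulum. An assembly gap of 50000 bases divides it, and 24 regions lay in it in all. The 20 had a median length of 915 bp and units such as AGG, AAGGAG and ACCCC. Outside their repeats they shared sequence. In a median of 99.4% of the 20-base words of a region, the word was found in another region of the cluster as well (range 29.2% to 100%), while the median for the other 379 regions among themselves was 0. The 20 therefore share sequence and are not independent of each other. CpG density across the cluster was 3.55 per 100 bp.

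The cluster was also the main source of repeat-bearing regions seen in every reaction. In chr6:47661495-47663347 fold enrichments were 8.80, 7.85 and 8.16 in replicates 1, 2 and 3, and in chr6:47734106-47736553 they were 8.46, 7.66 and 8.18. The spread between replicates was small in both regions. In chr6:47739696-47742182 replicate 1 stood above the others, with 11.9 against 6.18 and 5.71. Likewise in chr6:47648763-47651411 it had 8.00 against 5.00 and 5.28. Another 4 regions of the cluster with a peak in all replicates had values from 3.87 to 7.77.

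**Figure D3:**
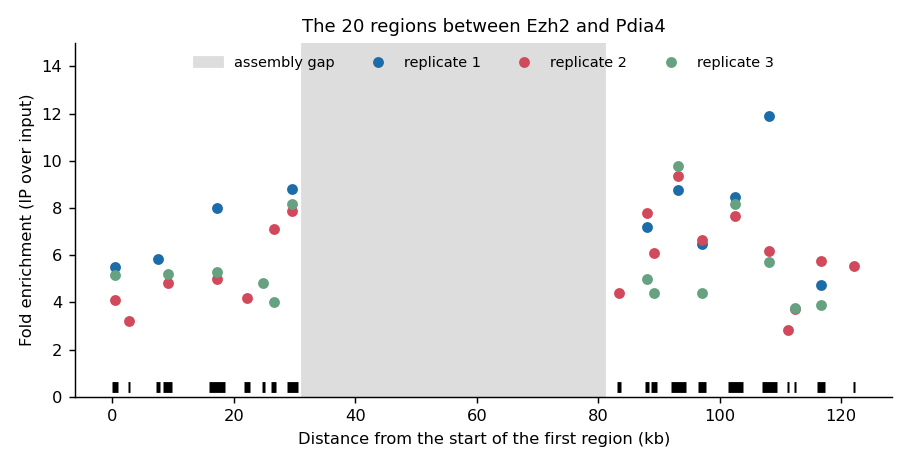
Fold enrichment of the 20 repeat-bearing regions between Ezh2 and Pdia4 (y axis) against distance in kb from the start of the first (x axis). Points are peaks of replicates 1, 2 and 3, black bars mark the regions and the grey block is the assembly gap. Points run from 2.84 to 11.9 and are found on both sides of the gap.

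Of the 399 regions, 13 had a peak in all 3 replicates and 39 in a pair of them, so that 52 (13%, interval 9.89 to 16.7) were found more than once. Among regions without a repeat 5.92% were (5.51 to 6.35). Without the cluster the value was 10.3% (7.42 to 13.8). Random regions as long as the regions found more than once also held repeats more often, so each class was set beside random regions of its own lengths. Among the 53 regions of any CpG content with a peak in all replicates, 24.5% were repeat-bearing (13.8 to 38.3) against 12.8% of random regions, and the count of 13 lay above the highest draw of 12. Without the cluster 4 of 44 were (9.09%, 2.53 to 21.7), against 10.9%. Among regions with a peak in 2 replicates the values were 5.27% and 7.20%. The 4 outside the cluster were those in 4930517M08Rik and Zfhx3, an ACC repeat of 73 bp in 4930578G10Rik (3.78, 2.87 and 3.87 in replicates 1, 2 and 3) and an AC repeat of 45 bp in Tiam1, a Rac exchange factor (3.76, 3.81 and 2.83). The last pair was named after its values were seen.

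**Figure D4:**
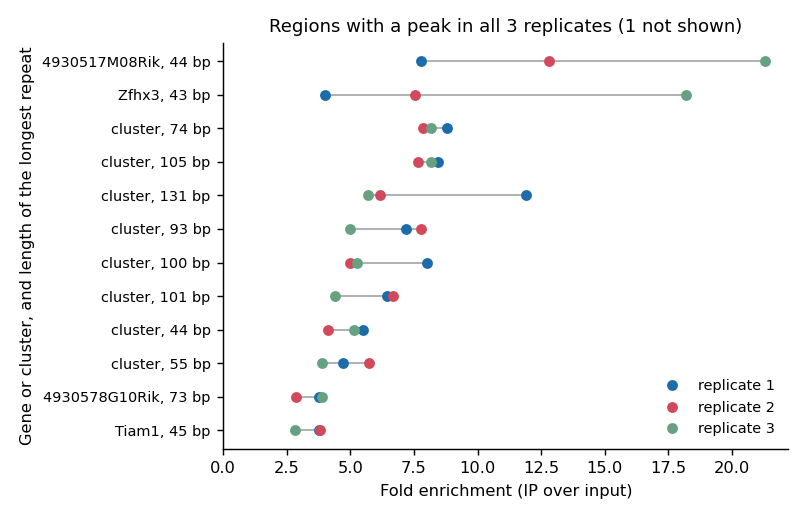
Fold enrichment (x axis) of 12 of the 13 repeat-bearing regions with a peak in all 3 replicates, labelled by gene or as part of the chromosome 6 cluster with the length of the longest repeat. Points are the replicates and grey lines join the lowest and highest. The regions in 4930517M08Rik and Zfhx3 spread widest, up to 21.3 and 18.2 in replicate 3.

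The cluster had less 5hmC in its base-calls than regions outside it, once the few regions with very many calls were left out. In the cluster, 5hmC made up 11%, 13% and 14.9% of the calls of replicates 1, 2 and 3 (exact binomial intervals 9.48 to 12.6, 11.6 to 14.5 and 12.8 to 17.3). Unmodified C made up 65.2%, 65.7% and 56.3%. Intervals cover counting error only, since calls on 1 read are not independent. Leaving out the cluster and every region with at least 20 calls at a CpG (13 regions, 3 of them with a repeat), repeat-bearing regions had 32.1%, 32.6% and 32.3% 5hmC in replicates 1, 2 and 3, from 156, 2653 and 1277 calls. Regions without a repeat had 29.0%, 32.7% and 32.2%. The mean difference was 0.989 ± 1.76 percentage points (SD, n = 3; exact permutation p = 0.750). In replicate 1 the interval of the repeat-bearing regions was 24.8 to 40.0 from counting error alone. A small difference could go unseen at its depth. For 5mC the shares were 44.9%, 39.8% and 38.6% against 39%, 39.5% and 40.6% (exact permutation p = 0.750).

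With all regions and calls included, the comparison changed sign between replicates. Repeat-bearing regions then had 14.8%, 21.8% and 17.2% 5hmC, against 6.66%, 29.2% and 28.7% in the others, a mean difference of -3.57 ± 10.4 percentage points (SD, n = 3; exact permutation p = 0.750). In replicate 1, the share in the others rested on regions with up to 1591 calls at a CpG, and it was 29.0% without the regions of at least 20 calls. With these regions left out but the cluster kept, the difference was negative in all 3 replicates, at -10.8 ± 4.62 percentage points (SD, n = 3; exact permutation p = 0.25, the smallest possible). With all regions but only sites of at least 5 calls, it was positive in all 3 replicates, at 12.9, 12.8 and 10.6 percentage points (mean 12.1, exact permutation p = 0.25). Averaged over regions with at least 10 calls, it was -5.71 ± 3.83 for all and -0.302 ± 3.19 without the cluster and the very deep regions (exact permutation p = 0.25 and 1.00).

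**Figure D5:**
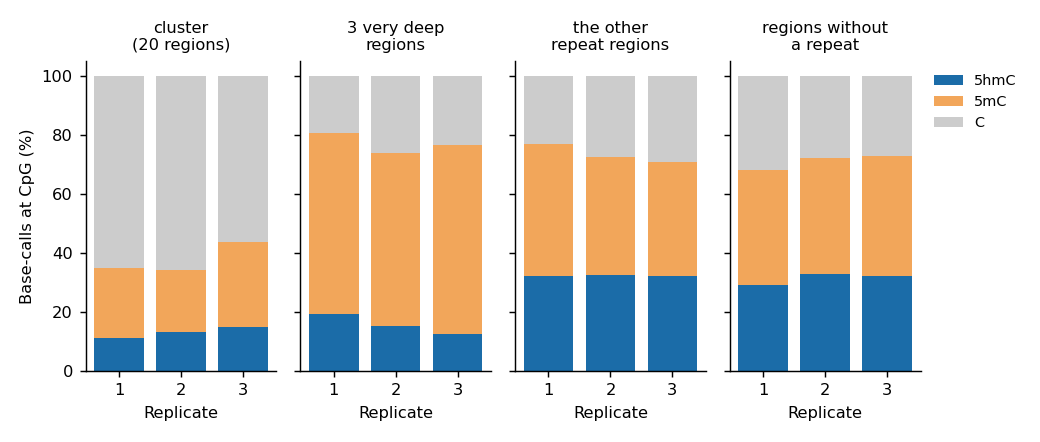
Percent of CpG base-calls that were 5hmC, 5mC or C (stacked, y axis) in each replicate (x axis), summed over the replicate's own peaks. Panels show the 20 regions of the chromosome 6 cluster, the repeat-bearing regions with at least 20 calls at a CpG (1, 2 and 3 regions in replicates 1, 2 and 3), all other repeat-bearing regions, and regions without a repeat that had fewer than 20 calls at each CpG. 5hmC lies between 11% and 19.4% in the first 2 panels and between 29.0% and 32.7% in the last 2.

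Outside those regions, 5hmC was also examined by the unit of the repeat. Regions led by AC had 32.4%, 32.9% and 34.7% in replicates 1, 2 and 3 (mean 33.3 ± 1.21, SD, n = 3). Regions led by AG had 33.3% and 39% in replicates 2 and 3, and 16.7% of only 12 calls in replicate 1. Regions with other units had 34.2%, 31.6% and 26.3%. Intervals of AC and of the other units overlapped in replicates 1 and 2 and did not in replicate 3 (30.8 to 38.7 against 22.4 to 30.5).

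CpG inside repeats had calls, although the methods state that bases marked by RepeatMasker were excluded. How such calls came into the deposited tables was not tested. Excluding the cluster and the very deep regions, 56.4% of the 110 CpG inside repeats in replicate 2 and 76.2% of the 101 in replicate 3 had a call. The shares for CpG over 150 bp away were 68.7% and 66.8%. 5hmC made up 23.7% of calls inside the repeat in replicate 2 (15.5 to 33.6) and 29.3% in replicate 3 (23.3 to 35.9), against 32.7% and 36.8% at more than 150 bp. The intervals overlap, and replicate 1 had 1 such call. No call was made in 18 of the 399 regions (4.51%), against 4.19% of those without a repeat.

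Peak summits fell on the repeat about as often as its length would give, within counting error in each replicate. In replicates 1, 2 and 3 respectively, 2 of 19, 39 of 278 and 28 of 140 peaks that touched a repeat had their summit in it (10.5%, 14.0% and 20%), while repeats made up 11%, 11.8% and 14.3% of those peaks. The interval of the last value was 13.7 to 27.6. The median distance from summit to repeat was 97.0, 98.5 and 69.0 bp. Across all repeat-bearing regions, Spearman's rho between repeat length and fold enrichment was 0.569 (n = 25), 0.217 (n = 288) and 0.204 (n = 151) in replicates 1, 2 and 3. Across regions outside the cluster it was -0.161 (n = 15), 0.149 (n = 270) and 0.0867 (n = 137), and the points of a replicate share its library.

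Most repeat-bearing regions lay in introns. By the annotation covering most of the region (GENCODE M39), 287 were intronic (71.9%), 68 intergenic (17%), 25 exonic (6.27%) and 19 in promoters, taken as 1000 bp upstream (4.76%). Regions without a repeat were exonic more often, at 17.2% (16.6 to 17.9) against 6.27% (4.10 to 9.11), and intergenic less often, at 8.61% against 17% (12.9% without the cluster). Intronic and promoter shares were 68.7% and 5.50%. Features were not counted for random regions with a repeat, so these shares were not compared with those of repeats in the genome. The longest AC repeat, of 114 bp, lay in a region mostly upstream of Relt, a member of the tumour necrosis factor receptor family, which had a fold enrichment of 3.84 in replicate 3 alone. The longest AG repeat (78 bp, upstream of Gm62357) had 2.84, the longest AAGG repeat (69 bp, in the deubiquitinase gene Usp46) 4.41, an AT repeat of 68 bp in Gm32618 3.81 and the longest AAAG repeat (84 bp, upstream of Gm65172) 3.53, each in replicate 2 alone.

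Protein-coding genes overlapped 275 of the 399 regions (68.9%) and 80.3% of the regions without a repeat. Gene overlap was not counted for random regions with a repeat either. At least 2 repeat-bearing regions were held by 19 genes. Fto, the demethylase of N6-methyladenosine in RNA, held 5 among its 14 regions with at least 2 CpG, all 5 in introns and each with a peak in 1 replicate. Fold enrichments in Fto ran from 2.83 to 4.73, with AC in 3 regions and AAAT and AAAC in the others. The rest of the 19 genes held 2 each, among them Cacna1d (calcium channel), Ncam1 (cell adhesion) and Kcnj6 (potassium channel). Genes with 2 had from 3 to 32 regions with at least 2 CpG. Whether 2 is more than such numbers of regions would give was not tested.

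Genes in which repeat expansions cause human disease were examined as a list. Of 40 mouse orthologues, 36 were matched by symbol on chromosomes 1 to 19, and 17 of them held 100 pulled-down regions with at least 2 CpG. Of these regions 5 (5.00%) had a repeat, against 3.13% of all regions with at least 2 CpG. They lay in introns of 4 genes. Beside the Zfhx3 region, Atxn1, the gene of ataxin 1, had an AC repeat of 43 bp with a fold enrichment of 2.90 in replicate 3. Cacna1a, the pore subunit of the P/Q-type calcium channel of Purkinje cells, had an AGAT repeat of 59 bp with 3.53 in replicate 2. Tcf4, a basic helix-loop-helix factor, had an AAAG repeat of 40 bp with 2.90 in replicate 3 and an AGG repeat of 61 bp with 2.87 in replicate 2. Each of these last 4 was found in 1 replicate only.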

How the data were processed

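Peaks and base-calls of 3 hMeDIP samples were analysed. The authors base-called MinION reads with Dorado, aligned them to GRCm39 with minimap2 and called peaks per replicate with MACS2 against a library of untreated DNA. The deposited peak lists give fold enrichment (a ratio), −log10 p- and q-values, a display score and the summit. The deposited modkit tables give counts of 5hmC, 5mC and C calls per CpG and their percent of valid calls. All their sites are listed on the forward strand. The methods state that RepeatMasker bases were excluded from base-calling tables and blacklisted peaks removed. CpG inside simple repeats nevertheless had calls in the deposited tables, and the blacklist was not checked here.

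Repeats were found by comparing each base with the base 1 unit before, in a search tested on simulated sequence. Random regions matched the chromosome and length of each region, outside assembly gaps (100 seeded draws). Percentages carry exact Clopper-Pearson 95% intervals, which cover counting error only. Differences between regions with and without a repeat were formed within each replicate and tested with a two-sided exact permutation test by sign flips over 3 replicates, whose smallest p is 0.25. Calls were summed over sites in the replicate's own peaks.

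Regions named were those found in all replicates (up to 10 by mean fold enrichment), the 3 highest of each replicate, the longest repeat of each of the 6 commonest units, the 5 with most calls, those in the genes of the expansion list and genes with at least 2 regions. Others were chosen after their values were seen. One region that this rule names is not reported here. Members, lists and tests were chosen with earlier results of these data known. Python 3.11.15, NumPy 2.4.6, pandas 2.3.3 and SciPy 1.17.1 were used.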

Additional observations from a re-analysis of the deposited data

Results flagged for a closer look

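Peaks on chromosomes X and Y were outside the comparisons above. They formed 54 regions, of which 47 held at least 2 CpG, and 3 of these also had a repeat of at least 40 bp.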

How the results depend on the processing

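The number of regions followed the thresholds and the ratio to random regions mostly did not. With repeats of at least 30 bp there were 681 regions, with at least 60 bp 60, with 1 base in 10 allowed to depart from the period 733 (ratio from 10 draws), with peaks at a q-value of at most 0.01 263 and with a fold enrichment of at least 4 112. Ratios were 0.743 at 60 bp, 1.68 with at least 5 CpG and 0.765 beside random regions with 2 CpG. With imperfect repeats the ratio was 1.08. In the other settings with a q, fold enrichment, merging or repeat rule changed they ran from 0.963 to 1.05. The mean percent of peaks with a repeat, 3.86, became 5.89 at 30 bp, 1.10 at 60 bp and 5.67 at a fold enrichment of at least 4. At 60 bp the regions led by AC fell to 10% and those found in 2 or more replicates rose to 25%.

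The differences in base-calls depended on few regions. For 5hmC (-3.57 percentage points), the sign turned at sites with at least 3 calls (1.13) or 5 calls (12.1), without the cluster (0.309) and without the cluster and the very deep regions (0.989). For 5mC (-14.7) it turned without the cluster and the very deep regions (1.39). The difference in median fold enrichment, 0.192, became -0.0196 without the cluster and 1.42 with repeats of at least 60 bp. It was 3.67e-05 with repeats of at least 30 bp and 0.311 when matched on CpG count and length. For means over peaks it was 0.657, and 0.208 without the cluster. Leaving out replicate 1, 2 or 3 gave 3.00e-05, 0.388 and 0.144 in that order. The settings without the cluster were chosen after seeing the data. Why the other settings moved these values was not tested.

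Leaving out 1 replicate gave 150 regions (without replicate 2) to 390, ratios of 0.979 to 1.09, 5hmC differences of -9.47 to 0.265 (positive without replicate 3) and 5mC differences of -25.4 to 0.0127 (positive without replicate 1). Depth limits the base-calls, with a median of 1 call per CpG, and replicate 1 had 156 calls in repeat-bearing regions outside the cluster and the very deep regions.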

Other observations

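Regions with fewer than 2 CpG, left out above, held repeats more often than those with 2 or more. A repeat lay in 60 of these 544 regions (11%, interval 8.52 to 14.0). Random regions of the same lengths that also had fewer than 2 CpG gave a mean of 28.1 (5.16%, range 16 to 41). AT repeats were found in 16 of the 60, AC in 12, AG in 7 and AATGG in 6. The 6 AATGG regions had a median highest fold enrichment of 8.58 (range 6.16 to 10.0), and 5 of them were found in at least 2 replicates. The 16 AT regions had a median of 3.83, and none was found more than once. These regions hold too few CpG for their base-calls to be compared.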
